A study of Mus musculus with 8 samples.

Results

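The transcripts of 10 genes of the sarcoplasmic reticulum and calcium cycling were followed in hearts of mice with and without Set7, given isoproterenol or saline. The genes are Atp2a2, Pln, Sln, Ryr2, Casq2, Trdn, Hrc, Cacna1c, Slc8a1 and Camk2d. They were chosen by name for their place in cardiac calcium cycling, and each was matched to a mouse gene identifier of GRCm38. All 10 were found among 55487 gene identifiers, 29066 of them counted in some library, and all 10 were among the 17636 genes with enough counts to be tested. The hearts belonged to 4 groups of 2 libraries: Set7KO given isoproterenol, Set7KO given saline, WT given isoproterenol and WT given saline. Set7KO is a global knockout bred from heterozygous parents, so the deletion was not limited to heart muscle cells. Isoproterenol was given under the skin at 60 mg/kg on each of 14 days before collection, and the saline groups received saline over the same period. Strain, age and sex were not given in the sources used here, and the labels do not say that each library came from its own animal, so the spread behind each p-value is that of these libraries and may be technical in part.

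Each heartbeat begins with calcium entry through the L-type channel of the surface membrane, which opens the ryanodine receptor and releases a larger amount of calcium from the sarcoplasmic reticulum. Relaxation follows when the SERCA pump returns calcium to the reticulum and the sodium-calcium exchanger carries the rest out of the cell. Small membrane proteins restrain the pump, proteins of the lumen store calcium and tie it to the release channel, and the kinase CaMKII phosphorylates several of these parts. Isoproterenol activates beta-adrenergic receptors, whose signalling acts on the same proteins, and lasting exposure is used to provoke hypertrophy and fibrosis in rodents. Set7 is an enzyme that methylates lysines of histones and other proteins, and its gene is Setd7.

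The libraries held 27847069 to 51705705 counts. Setd7 was between 3.79 and 5.70 CPM (counts scaled to a common library size, with normalisation factors) in the Set7KO libraries, against 43.0 to 72.6 CPM in the WT libraries, which matched the labels. The 12 cardiomyocyte markers examined summed to 126000 and 128700 CPM in the Set7KO isoproterenol libraries, 110800 and 112600 CPM in the Set7KO saline libraries, 95260 and 96020 CPM in the WT isoproterenol libraries and 120000 and 151500 CPM in the WT saline libraries, and the part of this difference in the results below was not tested. A trend with base composition separated the libraries. The median log2 deviation of the most GC-rich genes minus that of the most GC-poor genes was 0.19 and 0.64 in the Set7KO isoproterenol libraries, 0.36 and -0.91 in the Set7KO saline libraries, -1.08 and -0.78 in the WT isoproterenol libraries, and 0.55 and 0.86 in the WT saline libraries. Set7KO saline replicate 2 thus stood with the WT isoproterenol libraries and apart from its own replicate, with which it correlated at r = 0.949 across genes, the lowest of the 4 pairs. In WT the trend ran with treatment, so treatment and this trend cannot be told apart from the libraries alone. For this reason fold changes are also given from a fit with offsets for the GC content and length of each gene. The main comparisons of the 10 genes that rest on the Set7KO saline libraries are also given without each of them. Such a fit keeps 1 library in the Set7KO saline group, so its p-values hold no measure of that group's spread. The 12 cardiomyocyte markers had a median log2 fold change of isoproterenol against saline of -0.45 in WT, or -0.015 with offsets. In Set7KO their median was 0.19, or 0.04 with offsets. The sample titles also carry a letter whose meaning the labels do not give. It follows the groups except in Set7KO saline replicate 2, which has the letter of the WT saline libraries and not that of its own replicate, though its Setd7 level of 5.70 CPM was far below that of the WT libraries.

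Counted per kilobase of exons, the pump was by far the most abundant of the 10 transcripts. Atp2a2 averaged 1611 ± 653 CPM per kb over the 8 libraries (SD), Hrc 511 ± 142, Pln 344 ± 160.9 and Casq2 300.4 ± 96.6 CPM per kb. Transcripts of the release channel and the surface proteins were lower. Ryr2 had 37.9 ± 16.1 CPM per kb, Cacna1c 16.0 ± 3.77 and Slc8a1 9.35 ± 4.52. The lowest mean levels were those of Trdn at 3.00 ± 2.37 and Camk2d at 2.68 ± 1.06 CPM per kb, while Sln averaged 11.9 CPM per kb with an SD of 23.8 and was nearly absent from several libraries. Atp2a2 lay above Hrc, Casq2 above Ryr2, Ryr2 above Cacna1c, and Slc8a1 above Trdn in 8 of 8 libraries. Hrc lay above Pln in 6 of 8, Pln above Casq2 in 6 of 8 and Trdn above Camk2d in 4 of 8, so the order of these neighbours was not fixed. The exons of Ryr2, Cacna1c, Camk2d and Slc8a1 span 28790, 21191, 22493 and 18807 bases when every annotated exon is merged, which lowers their level per kb if the heart uses only some of them.

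Pln and Sln encode very short inhibitors of the pump, and their coding sequences are shown because so little of each transcript is coding. They are GENCODE M21 coding sequences for GRCm38, with the start and stop codons in capitals.
Pln: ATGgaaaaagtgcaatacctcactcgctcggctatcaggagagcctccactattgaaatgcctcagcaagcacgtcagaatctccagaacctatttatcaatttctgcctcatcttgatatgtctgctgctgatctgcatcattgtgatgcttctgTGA
Sln: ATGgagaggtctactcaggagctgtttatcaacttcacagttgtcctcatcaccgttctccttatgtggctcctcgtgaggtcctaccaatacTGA
Phospholamban is encoded by 52 codons and sarcolipin by 31. The coding part makes up 6.81% of the longest Pln transcript of 2334 bases and 7.28% of the longest Sln transcript of 1318 bases. The coding part of Pln holds 44.7% GC and its whole transcript 38.6%, which placed Pln at the 2.32th percentile of the genes tested for GC content, among the most GC-poor.

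Atp2a2 encodes SERCA2, the pump that returns calcium to the reticulum (chr5:122453513-122502225, minus strand). It had 9202 and 5384 CPM in the Set7KO isoproterenol libraries and 6358 and 17943 CPM in the Set7KO saline libraries. It had 8872 and 10386 CPM in the WT isoproterenol libraries and 7789 and 12450 CPM in the WT saline libraries. Its treatment groups overlapped in both genotypes, and the single value far above the rest was that of Set7KO saline replicate 2. The log2 fold change of isoproterenol against saline was -0.74 ± 0.47 (SE) in Set7KO and -0.07 ± 0.47 in WT. The 95% interval was -1.81 to 0.34 in Set7KO and -1.14 to 1.00 in WT, so both intervals included a 2-fold lower level.

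Pln encodes phospholamban, which inhibits SERCA2 until it is phosphorylated (chr10:53337667-53345987, plus strand). Its level was 744 and 657 CPM in the Set7KO isoproterenol libraries and 649.8 and 1547 CPM in the Set7KO saline libraries. It was 1556 and 1315 CPM in the WT isoproterenol libraries, against 550.7 and 571 CPM in the WT saline libraries. The high libraries were thus both WT isoproterenol libraries and Set7KO saline replicate 2, the same 3 that stood apart in base composition. In WT, Pln was 2.56-fold higher with isoproterenol without overlap (log2 fold change 1.36 ± 0.36 SE, adjusted p = 0.0941 by edgeR's quasi-likelihood test with Benjamini-Hochberg adjustment), which did not pass the adjusted threshold of 0.05. With GC and length offsets the log2 fold change was 0.23 ± 0.27 (adjusted p = 0.680). On the other strand, the coding gene Cep85l overlaps the body of Pln. It had 25 and 37 counts in the Set7KO isoproterenol libraries, 60 and 270 in the Set7KO saline libraries, 159 and 174 in the WT isoproterenol libraries and 37 and 23 in the WT saline libraries, against at least 14754 counts for Pln in every library.

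**Figure D1:**
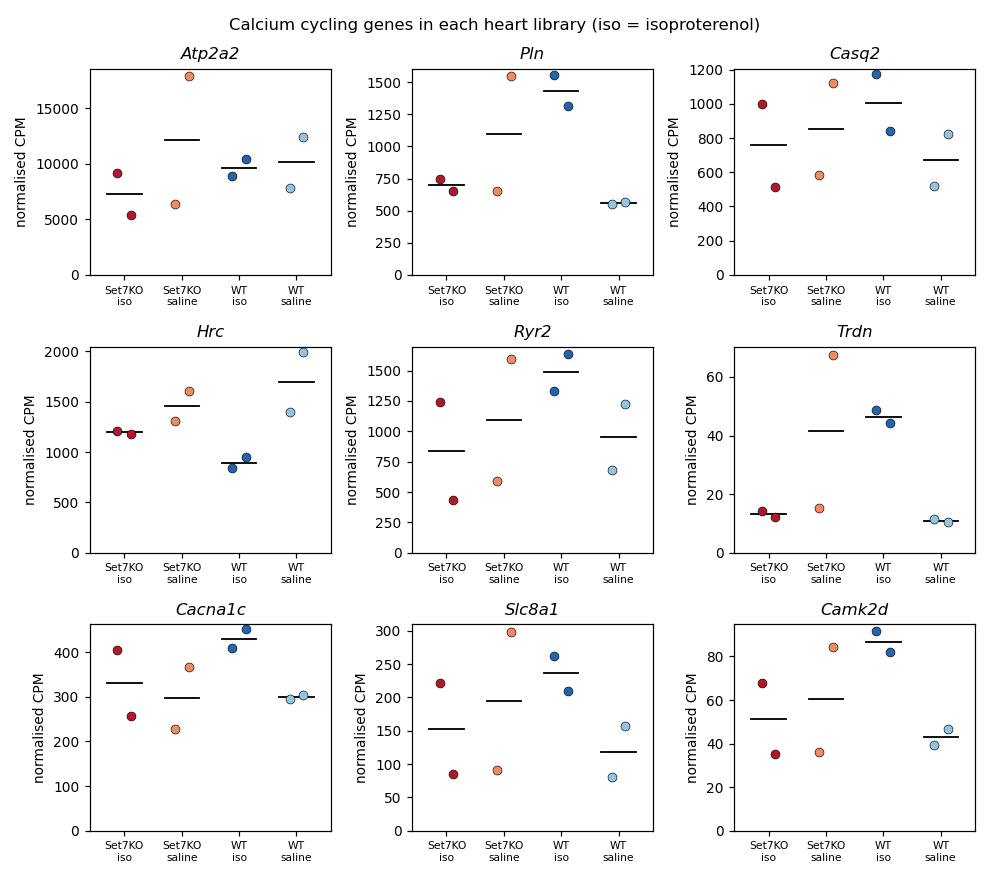
Normalised CPM of 9 calcium cycling genes in each library, with 2 dots per group (left dot replicate 1, right dot replicate 2) and a bar at their mean, from a linear axis that starts at 0. Pln and Trdn are high in both WT isoproterenol libraries and in Set7KO saline replicate 2, while Hrc is lowest in the WT isoproterenol libraries.

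The ratio of phospholamban to pump transcripts, taken within each library on the per-kb scale, sets aside the scaling between libraries. It was 0.178 and 0.269 in the Set7KO isoproterenol libraries and 0.225 and 0.190 in the Set7KO saline libraries. It was 0.387 and 0.279 in the WT isoproterenol libraries, against 0.156 and 0.101 in the WT saline libraries. The WT treatment groups did not overlap, and the Set7KO treatment groups did. With GC and length offsets the mean ratio was 0.258 ± 0.019 after isoproterenol and 0.171 ± 0.0593 after saline in Set7KO (SD, n = 2 each), and 0.246 ± 0.0369 after isoproterenol and 0.178 ± 0.00312 after saline in WT. On that scale the isoproterenol libraries lay above the saline libraries in both genotypes, by less in WT than without offsets. The ratio of exchanger to pump transcripts, Slc8a1 to Atp2a2, was 0.00645 ± 0.00187 after isoproterenol and 0.00502 ± 0.000512 after saline in Set7KO, and 0.00805 ± 0.00213 after isoproterenol and 0.00371 ± 0.000525 after saline in WT. With offsets the Set7KO means were 0.00827 ± 0.00275 after isoproterenol and 0.00432 ± 0.00124 after saline, and the Set7KO groups no longer overlapped. With offsets the WT means were 0.00523 ± 0.0013 after isoproterenol and 0.00546 ± 0.002 after saline, so the order of the WT groups turned. No test was run on these ratios.

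**Figure D2:**
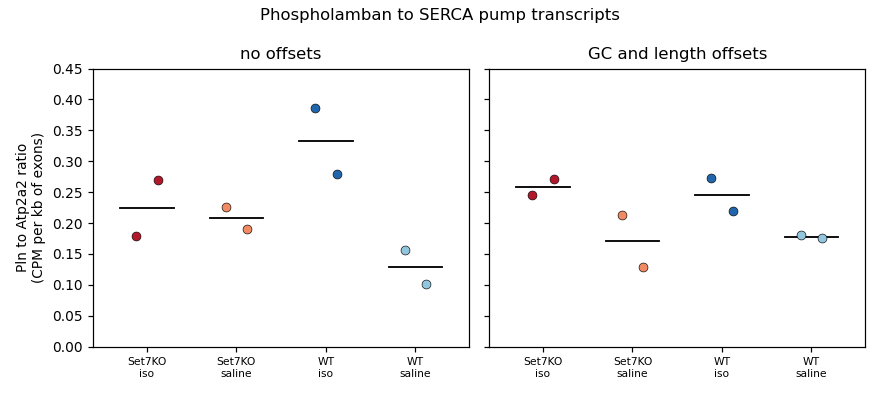
Ratio of Pln to Atp2a2 in CPM per kb of exons in each library, without offsets on the left and with GC and length offsets on the right, with dots for the 2 libraries of a group and a bar at their mean. Without offsets the WT isoproterenol libraries reach 0.387 and 0.279, against 0.156 and 0.101 in the WT saline libraries, and with offsets the WT means are 0.246 and 0.178.

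Sln encodes sarcolipin, an inhibitor of SERCA pumps that in the mouse heart is found mainly in the atria (chr9:53850164-53854560, plus strand). Its counts were 21 and 0 in the Set7KO isoproterenol libraries, 181 and 78 in the Set7KO saline libraries, 6 and 900 in the WT isoproterenol libraries, and 2420 and 28 in the WT saline libraries. On the CPM scale Sln had 0.632 and 0 in the Set7KO isoproterenol libraries, 5.88 and 1.55 in the Set7KO saline libraries, 0.136 and 26.0 in the WT isoproterenol libraries, and 90.3 and 0.928 in the WT saline libraries. The library at 0 allows up to 3 counts, or 0.110 CPM, for counting error alone. In WT each treatment group held 1 high and 1 low library and the groups overlapped, while both Set7KO isoproterenol libraries lay below both Set7KO saline libraries. The myosin light chains of atrial muscle, Myl7 and Myl4, varied over the same libraries. Myl7 had 4.25 and 0.878 CPM in the Set7KO isoproterenol libraries, 58.0 and 2.77 CPM in the Set7KO saline libraries, 0.386 and 97.1 CPM in the WT isoproterenol libraries, and 445.3 and 5.30 CPM in the WT saline libraries. Myl4 had 7.95 and 4.79 CPM in the Set7KO isoproterenol libraries, 69.6 and 5.96 CPM in the Set7KO saline libraries, 2.22 and 113.6 CPM in the WT isoproterenol libraries, and 483.6 and 9.61 CPM in the WT saline libraries. The same 3 libraries held the 3 highest values of Sln, Myl7 and Myl4. They were WT saline replicate 1, WT isoproterenol replicate 2 and Set7KO saline replicate 1.

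Over the whole atrial marker list, 6 of 8 genes were tested. The summed level ran from 249.1 to 604 CPM in the Set7KO isoproterenol libraries, 237 to 505 CPM in the Set7KO saline libraries, 322.6 to 823.6 CPM in the WT isoproterenol libraries and 341.5 to 2569 CPM in the WT saline libraries. The other listed genes followed Sln in part. Dkk3 had the same 3 highest libraries, at 17.9, 18.4 and 7.93 CPM. Nppa was highest in WT saline replicate 1 and WT isoproterenol replicate 2, but its next level, 566.5 CPM, was in Set7KO isoproterenol replicate 1, against 359 CPM in Set7KO saline replicate 1. Kcnj3, a subunit of an atrial potassium channel, was highest in Set7KO saline replicate 2 at 29.6 CPM, and Nr2f1 stayed between 1.10 and 2.09 CPM. Bmp10, a defining atrial gene, was at 0 in every library but Set7KO saline replicate 2. The part of atrial tissue in the Sln values was not tested, and in whole hearts fewer cells of a type and less RNA per cell cannot be told apart. Averaged over treatments, Sln had a log2 fold change of -4.45 ± 1.66 for Set7KO against WT (adjusted p = 1.00 by edgeR's quasi-likelihood test). Of all genes, 0.578% were lower at an unadjusted p under 0.05 in that comparison, as Sln was, and 0.00567% passed after adjustment. Without WT saline replicate 1 the value was -1.65, and without WT isoproterenol replicate 2 it was -1.18, neither under an unadjusted p of 0.05. Markers of skeletal muscle, another tissue that can express Sln, summed to 2.20 to 6.31 CPM over the 8 libraries, and Myf6 was at 0 in all of them.

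**Figure D3:**
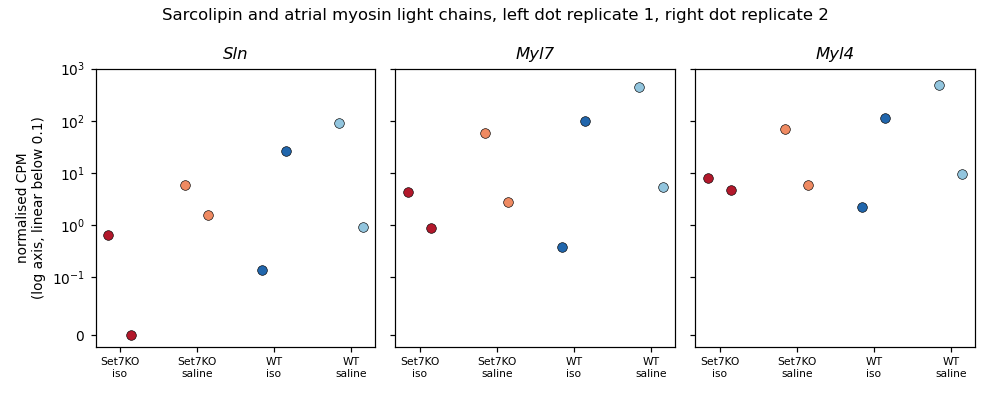
Normalised CPM of Sln and of the atrial myosin light chains Myl7 and Myl4 in each library on a log axis that is linear below 0.1, with replicate 1 on the left and replicate 2 on the right of each group. The highest dots of the 3 panels belong to the same 3 libraries, WT saline replicate 1, WT isoproterenol replicate 2 and Set7KO saline replicate 1.

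Ryr2 encodes the ryanodine receptor, the release channel of the reticulum (chr13:11553102-12106945, minus strand). It had 1239 and 431 CPM in the Set7KO isoproterenol libraries, 593 and 1596 CPM in the Set7KO saline libraries, 1335 and 1638 CPM in the WT isoproterenol libraries and 678 and 1226 CPM in the WT saline libraries. The Set7KO groups overlapped. In WT the isoproterenol libraries lay above the saline libraries, with a log2 fold change of 0.64 ± 0.58 (SE) that did not pass the test (adjusted p = 0.443, edgeR).

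Casq2 encodes cardiac calsequestrin, the main calcium store of the lumen (chr3:102086415-102146514, plus strand). Its level was 997 and 517 CPM in the Set7KO isoproterenol libraries, 583 and 1124 CPM in the Set7KO saline libraries, 1174 and 839 CPM in the WT isoproterenol libraries and 518 and 822 CPM in the WT saline libraries. The WT groups touched without overlap, and the log2 fold change there was 0.59 ± 0.42 (adjusted p = 0.342, edgeR).

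Trdn encodes triadin, which anchors calsequestrin to the ryanodine receptor (chr10:33080554-33476709, plus strand). Its level was 14.2 and 12.4 CPM in the Set7KO isoproterenol libraries and 15.3 and 67.6 CPM in the Set7KO saline libraries. It was 48.6 and 44.3 CPM in the WT isoproterenol libraries, against 11.4 and 10.5 CPM in the WT saline libraries. The highest level was 6.43 times the lowest, the widest span of the 9 genes other than Sln, and the 3 high libraries were those that were high for Pln. At 36.8% GC, Trdn lay at the 0.92th percentile of the genes tested, lower than any other of the 10. In WT it was 4.24-fold higher with isoproterenol (log2 fold change 2.08 ± 0.57, adjusted p = 0.0952 by edgeR), and with GC and length offsets the log2 fold change was 0.76 ± 0.41 (adjusted p = 0.372). In GENCODE, 6 processed pseudogenes and an antisense gene overlap the body of Trdn, and no source used here says how reads of such regions were assigned.

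Hrc encodes the histidine-rich calcium-binding protein of the lumen, a partner of triadin and of SERCA2 (chr7:45335290-45338974, plus strand). Hrc had 1206 and 1183 CPM in the Set7KO isoproterenol libraries, against 1311 and 1604 CPM in the Set7KO saline libraries. It had 843 and 949 CPM in the WT isoproterenol libraries, against 1403 and 1992 CPM in the WT saline libraries. The isoproterenol libraries lay below the saline libraries within each genotype, and the 4 isoproterenol libraries lay below the 4 saline libraries without overlap. Averaged over genotypes, Hrc was 1.52-fold lower after isoproterenol, at 1045 ± 178.2 CPM against 1577 ± 302 CPM after saline (SD over 4 libraries each). Its log2 fold change was -0.60 with a standard error of 0.16 (adjusted p = 0.277 by edgeR). The adjusted value did not pass, as 0.051% of all genes did, though Hrc was under an unadjusted p of 0.05. None of the other 9 separated all isoproterenol from all saline libraries. Of all genes tested, 2.01% were lower without overlap in this comparison and 4.9% had an unadjusted p under 0.05 and a lower level. Fitted with offsets, the log2 fold change of Hrc was -0.48 ± 0.19 (adjusted p = 0.419). Without offsets it was -0.68 without Set7KO saline replicate 1 (adjusted p = 0.200) and -0.53 without replicate 2 (adjusted p = 0.118).

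Cacna1c encodes the pore of the L-type calcium channel (chr6:118587240-119196418, minus strand). It had the narrowest span of the 10 genes, with 405 and 258 CPM in the Set7KO isoproterenol libraries, 228 and 367 CPM in the Set7KO saline libraries, 409.5 and 451 CPM in the WT isoproterenol libraries and 295 and 304 CPM in the WT saline libraries. The log2 fold change of isoproterenol against saline was 0.16 ± 0.29 in Set7KO and 0.52 ± 0.29 in WT (adjusted p = 0.879 and 0.240, edgeR). Its offset value in WT, 0.38 ± 0.22, was close to the value without offsets, whereas those of the GC-poor genes were not. Dcp1b, a coding gene on the other strand that overlaps the body of Cacna1c, had between 113 and 205 counts per library, against 7009 or more for Cacna1c.

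Slc8a1 encodes NCX1, the sodium-calcium exchanger (chr17:81373105-81738377, minus strand). Its level was 221 and 85.3 CPM in the Set7KO isoproterenol libraries, 91.5 and 298.5 CPM in the Set7KO saline libraries, 262 and 210.1 CPM in the WT isoproterenol libraries and 80.4 and 157 CPM in the WT saline libraries. In WT the log2 fold change was 0.99 ± 0.61 without offsets and -0.37 ± 0.51 with them, so its direction turned (adjusted p = 0.276 and 0.722).

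Camk2d encodes the delta isoform of CaMKII, the main one in the heart (chr3:126596302-126846326, plus strand). It had 67.7 and 35.2 CPM in the Set7KO isoproterenol libraries, 36.2 and 84.5 CPM in the Set7KO saline libraries, 91.9 and 81.9 CPM in the WT isoproterenol libraries and 39.2 and 46.5 CPM in the WT saline libraries. The WT isoproterenol libraries lay clear of the WT saline libraries, with a log2 fold change of 1.02 ± 0.43 (adjusted p = 0.146, edgeR). With GC and length offsets that value was -0.003 ± 0.246 (adjusted p = 0.996).

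Set side by side over isoproterenol against saline in WT, 7 of the 10 genes had a positive log2 fold change. None of the 10 passed the adjusted threshold in edgeR, nor did any of the 17636 genes tested (0%). At an unadjusted p under 0.05, Pln, Trdn and Camk2d were higher, against 18.5% of all genes, and Hrc was lower, against 13.3% of all genes. With 10 genes, these counts stand near the shares of all genes. Without overlap between groups, 7 were higher (39.3% of all genes) and 1 was lower (33.4%). The median log2 fold change of the 10 was 0.62, against 0.06 for all genes tested, and with offsets it was 0.11, against 0.15 for all genes. With offsets none of the 10 reached an unadjusted p under 0.05, which 17.1% of all genes did. DESeq2 called Pln, Trdn and Hrc after adjustment, in a comparison in which it called 15.2% of all genes, and limma-voom called none. Without Set7KO saline replicate 1 or replicate 2, edgeR called Pln, Trdn, Hrc and Camk2d, beside 20.1% and 20.7% of all genes. With no filter edgeR called Pln, Trdn and Hrc beside 5.2% of all genes, and the fit on the 2 WT groups alone called these with Camk2d and Cacna1c beside 29.7%.

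**Figure D4:**
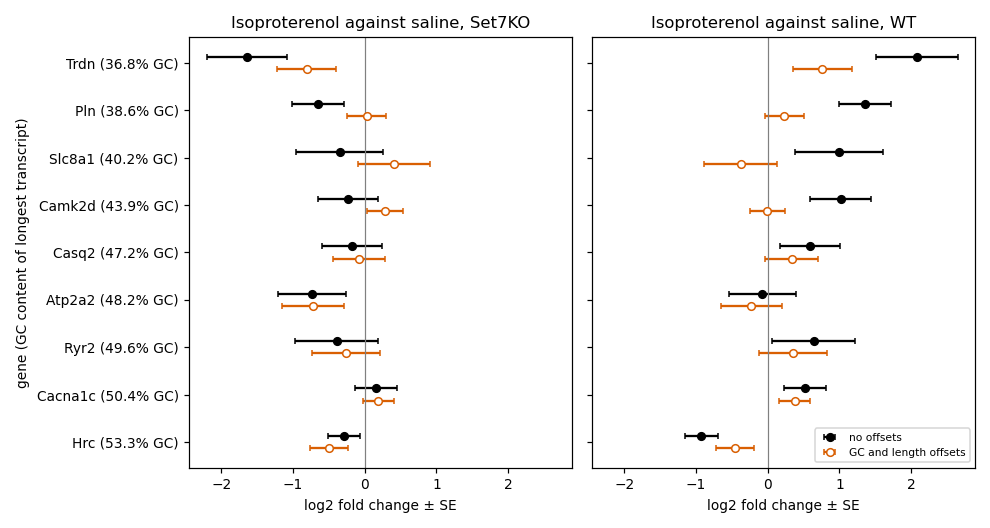
Log2 fold change of isoproterenol against saline with its standard error for 9 genes in Set7KO (left) and WT (right), from the fit without offsets (filled) and with GC and length offsets (open), with genes running from the GC-poorest at the top to the GC-richest at the bottom. In WT the filled values of Trdn, Pln, Slc8a1 and Camk2d, between 2.08 and 0.99, move to between 0.76 and -0.37 with offsets.

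In Set7KO, isoproterenol against saline gave a negative log2 fold change for 9 of 10 genes. The median was -0.37 (all genes -0.04), or -0.17 with offsets (all genes -0.07). Trdn had the lowest unadjusted p (log2 fold change -1.64 ± 0.56, adjusted p = 0.478 by edgeR) and was the only one of the 10 under 0.05, where 6.01% of all genes were lower. After adjustment edgeR called 0% of all genes, and none of the 10 passed with edgeR, DESeq2 or limma-voom. Sln, Trdn and Hrc were lower without overlap (18.7% of all genes). These values rested on which Set7KO saline library was used. Set7KO saline replicate 2 was higher than replicate 1 for 9 of the 9 genes other than Sln, by 1.22 to 4.42 times. Without replicate 1, edgeR called Pln (-1.14, adjusted p = 0.0455) and Trdn (-2.35, adjusted p = 0.0287), beside 2.66% of all genes, and 10 of 10 values were negative. Without replicate 2, 7 of 10 values were positive, with Pln at 0.11 (adjusted p = 0.977) and Trdn at -0.20 (adjusted p = 0.930). The Set7KO isoproterenol libraries also differed, replicate 1 being higher than replicate 2 for 9 of 9 genes, by 1.02 to 2.87 times. With all libraries and offsets, the values in Set7KO were 0.03 ± 0.27 for Pln, -0.81 ± 0.41 for Trdn and -0.50 ± 0.27 for Hrc, and none of the 10 reached an unadjusted p under 0.05 (9.19% of all genes). With offsets and without Set7KO saline replicate 1, Pln had -0.25 and Trdn -1.37.

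The interaction asks whether the isoproterenol difference itself differed between Set7KO and WT. It was negative for 9 of 10 genes, that is, lower in Set7KO. The median was -1.14 (all genes -0.05), or -0.31 with offsets (all genes -0.19). Trdn had -3.73 ± 0.79 (adjusted p = 0.0876) and Pln -2.00 ± 0.51 (adjusted p = 0.0900), neither of which passed in edgeR, as did none of all genes (0%). They were the 2 of 10 lower at an unadjusted p under 0.05, against 18.6% of all genes. DESeq2 called both after adjustment, beside 12.9% of all genes, as did edgeR with no filter, beside 5.8%, and limma-voom called none of the 10. With offsets Pln had -0.20 ± 0.39 (adjusted p = 0.834) and Trdn -1.57 ± 0.58 (adjusted p = 0.289), the only one of the 10 under 0.05, where 10.4% of all genes were lower. Trdn passed the adjusted threshold with offsets when Set7KO saline replicate 1 was left out (-2.14, adjusted p = 0.0464, beside 0.767% of all genes), and not when replicate 2 was left out (-0.67, adjusted p = 0.515). Without offsets and without Set7KO saline replicate 1, edgeR called Trdn, Pln and Camk2d, beside 31.6% of all genes. The interaction without offsets was negative for 9 of 10 genes without Set7KO saline replicate 1. Without replicate 2 it was negative for 7 of 10 and positive for 3. The interaction values thus rested in part on which Set7KO saline library was used. With all libraries, Hrc had 0.64 ± 0.32 without offsets and -0.04 ± 0.38 with them.

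Between genotypes, the 10 genes were compared within each treatment, and these comparisons share libraries with those above. After isoproterenol, 9 of 10 were lower in Set7KO than in WT by the sign of the fit without offsets. The median was -0.69 (all genes -0.05), or -0.21 with offsets (all genes -0.13). Pln was at 701 ± 61.9 CPM in Set7KO and 1436 ± 171 CPM in WT (SD over 2 libraries each), a log2 fold change of -1.04 ± 0.36 (adjusted p = 0.229). Trdn was at 13.3 ± 1.28 CPM in Set7KO and 46.5 ± 3.02 CPM in WT (log2 fold change -1.81 ± 0.56, adjusted p = 0.229). Neither passed in edgeR, where 0.00567% of all genes did. They were the 2 lower at an unadjusted p under 0.05 (12.7% of all genes). Pln, Trdn, Ryr2, Cacna1c and Camk2d were lower without overlap, against 36.3% of all genes, and Hrc was higher, against 31.8%. DESeq2 called Trdn beside 1.37% of all genes, and the fit on these 2 groups alone called Pln and Trdn beside 7.68%. With offsets the 2 values were -0.18 ± 0.27 for Pln and -0.71 ± 0.41 for Trdn.

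After saline, Pln and Trdn ran the other way. Pln was at 1098 ± 634 CPM in Set7KO and 561 ± 14.4 CPM in WT (log2 fold change 0.97 ± 0.36), and Trdn at 41.4 ± 37.0 CPM in Set7KO and 11.0 ± 0.646 CPM in WT (1.92 ± 0.56). Both had an adjusted p of 0.483 by edgeR, and 0.00567% of all genes passed. The 2 were higher at an unadjusted p under 0.05, as were 7.83% of all genes, and without overlap, as were 19.6%. Without Set7KO saline replicate 1 both passed (Pln 1.46, adjusted p = 0.0281, Trdn 2.62, adjusted p = 0.0276, beside 5.64% of all genes). Without replicate 2 they had 0.24 and 0.50, with an adjusted p of 0.998 each. With offsets the values were 0.02 ± 0.27 for Pln and 0.87 ± 0.41 for Trdn. With offsets and without Set7KO saline replicate 1 they were 0.30 and 1.43. Averaged over treatments, Set7KO against WT gave values between -0.32 and 0.10 for the 9 genes other than Sln, none with an unadjusted p under 0.05.

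The upstream sequences of Pln and Hrc are shown because these 2 genes lay at opposite ends of GC content among the abundant genes. Their log2 fold changes in WT had opposite signs, 1.36 ± 0.36 and -0.92 ± 0.23, but neither passed (adjusted p = 0.0941 each by edgeR). With offsets the values were 0.23 ± 0.27 and -0.46 ± 0.27. RefSeq promoter entries on GRCm38.p6 matched 7 of the 10 genes, and each window below is the 250 bases before the start in that table, 5′ to 3′ on the gene's strand. The RefSeq starts differ from the GENCODE gene starts given above, so that the Pln window ends 19 bases past the GENCODE start and the Hrc window 21 bases short of it. Capitals mark matches on either strand to 5 motifs: the TATA box (letters TATAAA), the E-box (letters CANNTG), the GATA motif (letters AGATAA), the M-CAT motif (letters CATTCC) and the GC box (letters GGGCGG).
Pln, chr10:53337436-53337685, plus strand: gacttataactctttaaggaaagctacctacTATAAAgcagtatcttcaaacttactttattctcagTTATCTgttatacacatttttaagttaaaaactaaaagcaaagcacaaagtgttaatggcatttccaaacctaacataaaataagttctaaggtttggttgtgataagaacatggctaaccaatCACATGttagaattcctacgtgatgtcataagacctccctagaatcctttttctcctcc
Hrc, chr7:45335019-45335268, plus strand: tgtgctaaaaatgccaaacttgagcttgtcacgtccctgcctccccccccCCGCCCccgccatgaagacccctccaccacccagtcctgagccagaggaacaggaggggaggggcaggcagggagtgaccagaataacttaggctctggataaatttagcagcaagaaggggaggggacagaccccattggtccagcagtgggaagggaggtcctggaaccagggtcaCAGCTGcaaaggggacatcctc
The Pln window held 32.8% GC, at the 3.17th percentile of 32851 promoters, with 1 TATA box, 1 E-box and 1 GATA motif. The Hrc window held 59.6% GC, at the 72.1th percentile, with 1 E-box and 1 GC box. In all promoters of the table, 12.4% held the TATA box, 66.2% the E-box, 9.99% the GATA motif, 12.6% the M-CAT motif and 32.7% the GC box. Over the 9 promoter entries of the 7 genes, 1 held the TATA box, 8 the E-box, 2 the GATA motif, 0 the M-CAT motif and 3 the GC box. These are matches of letters in a window and say nothing of binding.

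Genes that work beside the 10 were examined in 7 lists by role, and none of their members passed the adjusted threshold in any of the 7 contrasts with edgeR and all libraries. In the lumen and junction of the reticulum, 14 genes were tested. In WT, 6 were lower with isoproterenol at an unadjusted p under 0.05, against 13.3% of all genes. With offsets 4 were lower at that threshold, against 1114 of all 17636 genes tested. Without offsets 10 were negative in WT. The WT median was -0.45 (all genes 0.06), or -0.29 with offsets (all genes 0.15). Averaged over genotypes, 4 of the 14 were lower at an unadjusted p under 0.05, against 4.9% of all genes. The median of the 14 was then -0.13 (all genes 0.02), or -0.17 with offsets (all genes 0.03). Calr encodes calreticulin, a calcium-binding chaperone of the reticulum. It had 263 and 293 CPM in the Set7KO isoproterenol libraries, 463 and 408 CPM in the Set7KO saline libraries, 184 and 229 CPM in the WT isoproterenol libraries and 353 and 519 CPM in the WT saline libraries. The 4 isoproterenol libraries lay below the 4 saline libraries, with a log2 fold change of -0.86 ± 0.17 (adjusted p = 0.186). It was -0.83 ± 0.16 with offsets (adjusted p = 0.143).

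Jph2 encodes junctophilin 2, which holds the reticulum to the surface membrane. It had 835 and 754 CPM in the Set7KO isoproterenol libraries, 913 and 844 CPM in the Set7KO saline libraries, 573 and 694 CPM in the WT isoproterenol libraries and 1051 and 1468 CPM in the WT saline libraries. Its 4 isoproterenol libraries also lay below the 4 saline libraries (log2 fold change -0.57 ± 0.16, adjusted p = 0.316), but with offsets they overlapped and the value was -0.36 ± 0.19 (adjusted p = 0.568). Casq1, the calsequestrin of skeletal muscle, had 8.19 and 7.76 CPM in the Set7KO isoproterenol libraries, 30.9 and 7.69 CPM in the Set7KO saline libraries, 4.74 and 10.2 CPM in the WT isoproterenol libraries and 38.1 and 44.6 CPM in the WT saline libraries. Its low saline library was Set7KO saline replicate 2. Averaged over genotypes, Casq1 had a log2 fold change of -1.87 ± 0.43 (adjusted p = 0.203 by edgeR), and -1.73 with all libraries and offsets (adjusted p = 0.186). The value was -2.22 without Set7KO saline replicate 2 and -1.21 without replicate 1. Tmem38a, a counter-ion channel of the reticulum, had a log2 fold change of -0.40 ± 0.16 averaged over genotypes (adjusted p = 0.483) and -0.26 ± 0.19 with offsets. Fkbp1b, which binds the ryanodine receptor, stayed at or below 1.05 CPM in every library.

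**Figure D5:**
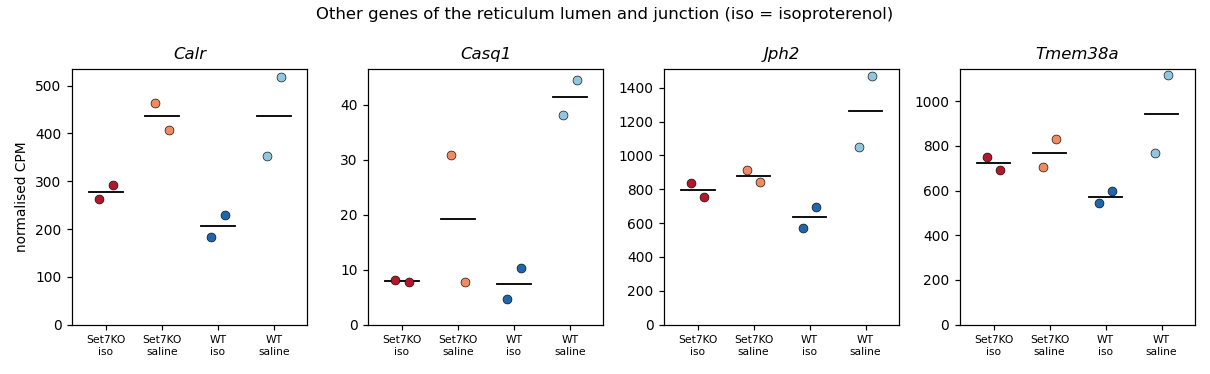
Normalised CPM of Calr, Casq1, Jph2 and Tmem38a in each library, with 2 dots per group and a bar at their mean, on linear axes that start at 0. The isoproterenol libraries of Calr lie between 184 and 293 CPM, below the saline libraries at 353 to 519 CPM.

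Among SERCA isoforms and small regulators 4 of 6 genes were tested, with none called. Atp2a1, the skeletal muscle pump, reached at most 1.87 CPM, and Atp2a3, which encodes SERCA3, ranged from 19.6 to 47.7 CPM over the 8 libraries. Strit1, which encodes a small protein that in mice activates SERCA2, had 4.64 CPM in Set7KO saline replicate 2 and at most 1.34 CPM in the other libraries. In Set7KO, isoproterenol against saline gave Strit1 a log2 fold change of -2.73 without Set7KO saline replicate 1 and -0.27 without replicate 2. Among other release channels and store-operated entry, Itpr1, an inositol trisphosphate receptor, had 58.0 and 61.8 CPM in the WT isoproterenol libraries, against 36.6 and 35.7 CPM in the WT saline libraries (log2 fold change 0.73 ± 0.21, adjusted p = 0.0960). With offsets that value was 0.51 ± 0.19 (adjusted p = 0.255). Of the 9 tested in that list, 1 was higher and 2 lower in WT at an unadjusted p under 0.05.

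Among 16 sarcolemmal channel genes, 2 were higher and 4 lower in WT at the unadjusted threshold. Rrad, whose product restrains the L-type channel, had 153 and 139 CPM in the WT isoproterenol libraries, against 239 and 455 CPM in the WT saline libraries (log2 fold change -1.25 ± 0.40, adjusted p = 0.102). With offsets its WT groups overlapped and the value was -0.47 ± 0.37 (adjusted p = 0.532). Cacna1h, a T-type channel pore, had 59.4 and 52.1 CPM in the Set7KO isoproterenol libraries, against 21.2 and 23.9 CPM in the Set7KO saline libraries (1.31 ± 0.37, adjusted p = 0.465). That value was 0.96 ± 0.37 with offsets, 1.22 without Set7KO saline replicate 1 and 1.40 without replicate 2, none passing after adjustment. In the list of surface exporters and pumps, 8 of 9 genes were tested, and 1 was higher and 2 lower in WT at the unadjusted threshold. Of 8 mitochondrial calcium genes, 1 was higher and 1 lower in WT, Micu2 at 0.73 ± 0.25 and Letm1 at -0.65 ± 0.21, or 0.44 ± 0.20 and -0.35 ± 0.17 with offsets. Of 25 kinases, phosphatases and anchors, 6 were higher and 3 lower in WT. Among them Ppp1r1a, whose product inhibits protein phosphatase 1, had -2.21 ± 0.54 (adjusted p = 0.0941), or -1.59 ± 0.41 with offsets, at no more than 4.38 CPM. In each list these counts stand beside 18.5% of all genes higher and 13.3% lower in WT.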

How the data were processed

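RNA was read as whole-number gene counts that the authors deposited, 1 column per library. Per the labels' protocols, total heart RNA was made into stranded mRNA libraries and sequenced as single reads of 75 cycles. Per the submitters' processing notes HISAT2, HISAT, StringTie, edgeR and GRCm38 were used. No source used here gives their versions, the strand setting or how reads shared between genes were treated. GENCODE M21 named 55227 identifiers. Using R 4.3.3 and edgeR 4.0.16, 4 group means were modelled over the 8 libraries (TMM, filterByExpr, two-sided quasi-likelihood tests, Benjamini-Hochberg over 17636 genes in each of 7 contrasts, threshold 0.05). The biological coefficient of variation was 28.4%, on 4 residual degrees of freedom. Offsets came from natural splines of GC content and exonic length with 5 degrees of freedom each. Alternatives used limma-voom (limma 3.58.1), DESeq2 1.42.0, other normalisations and filters, fits on the 2 groups compared and each library left out. The procedure was tested on simulated counts in which 200 genes with a mean above 1 CPM were changed. The simulated libraries had no trend with GC content, unlike the real ones, so the rates that follow may not hold for the real counts. For isoproterenol against saline in WT it recovered 5% of 2-fold and 63% of 4-fold changes, and 10 of its 78 calls were unchanged genes. Averaged over genotypes it recovered 48% and 96%, and 8 of its 152 calls were unchanged genes. Where a group kept 1 library, it was assumed to vary like the others. The 10 genes, the lists and the alternatives were chosen with earlier results of these data known. Of each list up to 4 genes with the smallest p averaged over genotypes and at least 1 CPM were named, and Strit1 (annotated as Gm34302), Jph2, Fkbp1b and Atp2a1. Erln and Arln were not matched, and Ryr1 and Slc8a3 were below the filter. Fits of the named genes of the lists with offsets and without each Set7KO saline library were added after seeing the data. The floor of 3 counts covers counting error only. Figures were drawn with matplotlib 3.10.9.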

Additional observations from a re-analysis of the deposited data

How the results depend on the processing

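The number of the 10 genes called at an adjusted p under 0.05 was 0 in each of the 7 contrasts with all libraries in edgeR. Over the pairs of a contrast and an alternative, it stayed 0 in 110 and was above 0 in 13. For isoproterenol against saline in WT it was 3 with no filter and 3 with DESeq2 (Pln, Hrc and Trdn each time), and 5 in the fit on the 2 groups compared (with Cacna1c and Camk2d). For Set7KO against WT after isoproterenol it was 1 with DESeq2 (Trdn) and 2 in the fit on the 2 groups compared (Pln and Trdn). For the interaction it was 2 with no filter and 2 with DESeq2, and 1 (Trdn) with GC and length offsets and without Set7KO saline replicate 1. With 1 library left out at a time, the count ran from 0 to 4 for isoproterenol against saline in WT, 0 to 2 in Set7KO, 0 to 2 for Set7KO against WT after saline, 0 to 0 after isoproterenol, 0 to 3 for the interaction, and 0 to 0 for both averaged contrasts. All counts above 0 came from leaving out a Set7KO saline library, the 2 most unlike replicates. With no filter 5.2% of all genes were called for isoproterenol against saline in WT and 5.8% for the interaction, so the counts over all genes moved too. The cause was not tested. No paired analysis was possible because the labels give no replicate numbers shared between groups. With 2 libraries a group, a count of 0 does not show that a gene's level was the same.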
